A study of Canis lupus familiaris with 6 samples.

Results

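The 10 genes described here encode parts of the presynaptic terminal of retinal neurons: CPLX3 and CPLX4 (complexins), CTBP2, BSN and PCLO (ribbon and active zone scaffold), CACNA1F and CACNA2D4 (calcium channel subunits), and RIMS2, UNC13B and SYT1 (vesicle priming and calcium sensing). They were chosen by name, and all 10 are among the 34981 genes in the count matrices. They were followed in dog neural retina in 2 groups. The first is retina overlying a subretinal transplant, and the second is control retina from a graft-free area; 5 mm punches were taken on day 3. All dogs had normal or wild-type retinas and were immunosuppressed, so the controls carried the immunosuppression too. The transplant was mechanically broken fragments of retinal organoids grown from WA09 CRX-tdTomato, a human embryonic stem cell line with a fluorescent photoreceptor reporter. There were 3 experiments (LG5, RC726 and RC724), each with 1 punch per group and 1 library of 10x 3' single-cell RNA per punch. The labels do not say how many dogs stand behind an experiment, nor whether human reads were set apart, and the ages of the animals were not given in the sources used here.

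Photoreceptors and bipolar cells release glutamate continuously from ribbon synapses, in which a plate of the protein RIBEYE tethers vesicles above L-type calcium channels. Complexins bind the assembled SNARE complex and set how readily a docked vesicle fuses; complexins 3 and 4 are the forms of retinal ribbon synapses. In mouse, complexin 4 has been placed in rod terminals, and complexin 3 in cone and rod bipolar terminals and in some amacrine cells. Amacrine cells make conventional synapses without ribbons.

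Barcodes were grouped into classes by clusters built without the 10 genes, and a class is called rod-like, cone-like, bipolar-like or amacrine-like after its markers (GNAT1 and PDE6A, ARR3 and PDE6H, PCP2 and TRPM1, and GAD1 and C1QL2 are examples). The libraries held 8778 to 23908 barcodes and 34768162 to 60755006 UMIs (unique molecular identifiers, which count captured RNA molecules). Over the graft there were 6455, 7022 and 5972 rod-like barcodes, against 6609, 6702 and 5196 in control (LG5, RC726 and RC724 in this order here and in all value lists that follow). Amacrine-like barcodes were the fewest, with 635, 103 and 105 over the graft and 233, 81 and 95 in control. UMIs were summed per library and class and are given as UMIs per 1000000 UMIs of the class (CPM). Such levels are compared within a gene only, because they are not scaled per length. LG5 was processed with an earlier major version of Cell Ranger, the authors' counting software, than RC726 and RC724, and the release also differed between the punches of RC726. Levels are therefore compared within an experiment. Cells are not replicates, and n is 3 libraries per group throughout.

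Over the graft, CPLX3 was 2.85-fold higher in rod-like cells and 3.0-fold higher in cone-like cells, CPLX4 was lower in rod-like cells, and UNC13B was slightly lower in rod-like cells, a call that was lost without LG5 or without RC724. None of the 10 genes passed the test in bipolar-like or amacrine-like cells. In Müller glia-like cells CPLX3 was also higher over the graft in each experiment, by 1.08 ± 0.17 on the log2 scale (edgeR, adjusted p = 0.094). How that change differs from the rod-like and cone-like ones was not tested. The CPLX3 and CPLX4 changes in rod-like cells differed from those in bipolar-like cells when the difference itself was tested. The CPLX3 change also differed from that in amacrine-like cells, whereas the CPLX4 difference from amacrine-like cells was lost without LG5 (0.17 on the log2 scale, against 0.66 with all 3 experiments) or without RC724.

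**Figure D1:**
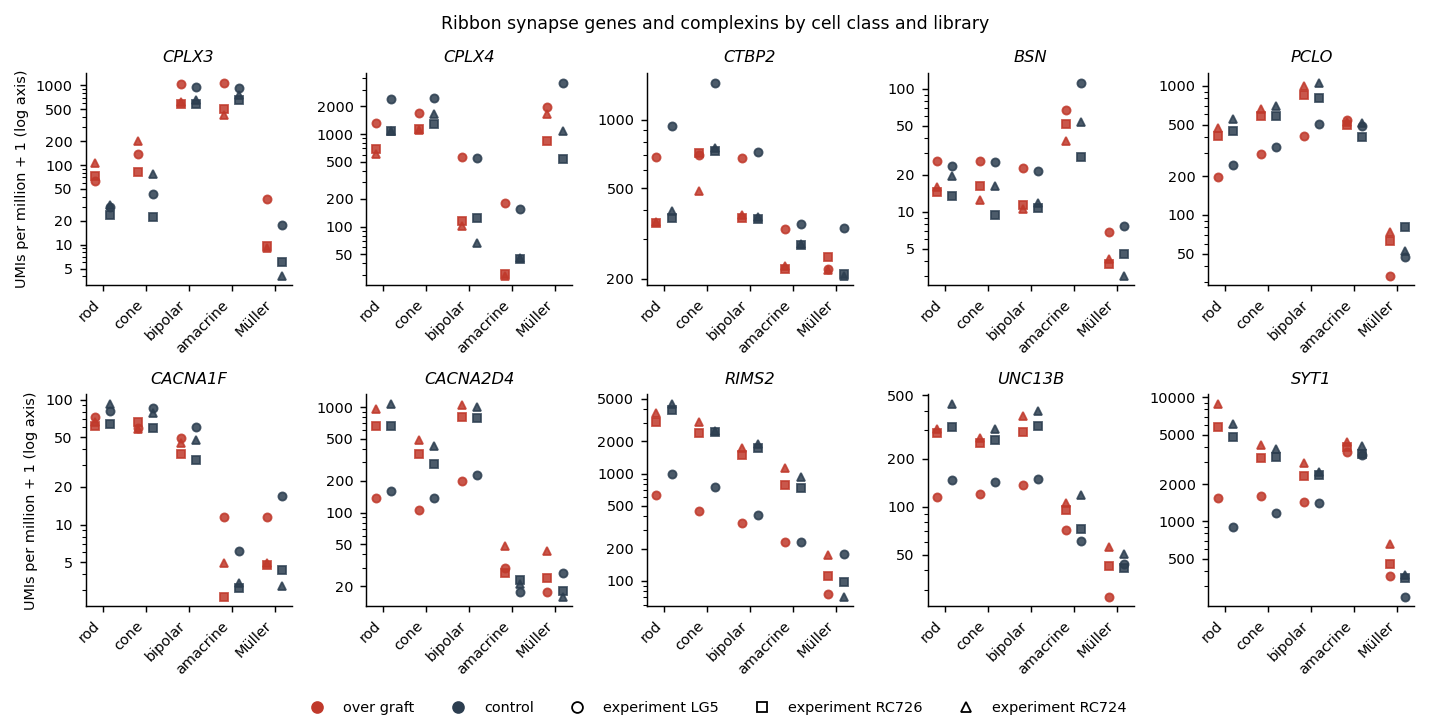
Level of each of the 10 genes (CPM + 1, log axis) in 5 cell classes, with 1 point per library, over graft in red left of control in blue, and the marker shape giving the experiment. CPLX3 is low in rod-like, cone-like and Müller glia-like cells and high in bipolar-like and amacrine-like cells, and its red points in rod-like and cone-like cells all lie above the blue ones.

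The levels in control retina come first. CPLX3 had 28.3, 22.3 and 30.9 CPM in control rod-like cells. It had 42.3, 21.4 and 76.4 CPM in control cone-like cells. In control bipolar-like cells it had 961, 583 and 656 CPM, and in control amacrine-like cells 927, 649 and 763 CPM. Inner retinal cells thus stood well above photoreceptors in every experiment. By edgeR's quasi-likelihood test on control sums, adjusted over all genes and all 6 pairs of classes, bipolar-like cells exceeded rod-like cells by 4.84 ± 0.33 on the log2 scale (SE, adjusted p = 4.0e-06) and amacrine-like cells exceeded rod-like cells by 4.60 ± 0.33 (adjusted p = 5.0e-06). By the same test amacrine-like minus bipolar-like was -0.24 ± 0.28 (adjusted p = 0.53), and cone-like minus rod-like was 0.75 ± 0.30 (adjusted p = 0.065). Neither of these pairs of neighbours in the order passed after adjustment, although the cone-like minus rod-like value had an unadjusted p of 0.030. Without LG5 the cone-like minus rod-like value passed (adjusted p = 0.030). Within bipolar-like cells, CPLX3 had 988, 620 and 668 CPM in control ON bipolar-like cells and 790, 334 and 391 CPM in control OFF bipolar-like cells.

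CPLX4 ran the other way. It had 2404, 1081 and 1068 CPM in control rod-like cells and 2444, 1272 and 1664 CPM in control cone-like cells. It had 554, 122 and 64.7 CPM in control bipolar-like cells and 156, 43.7 and 44.7 CPM in control amacrine-like cells. Bipolar-like minus rod-like was -2.91 ± 0.40 (adjusted p = 0.00025) and amacrine-like minus rod-like was -4.62 ± 0.44 (adjusted p = 2.5e-05), while cone-like minus rod-like was 0.42 ± 0.37 (adjusted p = 0.39; 0.048 without LG5). OFF bipolar-like cells had 1013, 473 and 335 CPM and ON bipolar-like cells 481, 68.8 and 52.5 CPM in control, so the order of the bipolar types was the reverse of that for CPLX3. In LG5, rod markers in control bipolar-like cells summed to 44.3% of their level in the whole punch, against 10.2% in RC726 and 14.4% in RC724. CPLX4 in the same cells stood at 22.7%, 16.5% and 7.81% of its own whole-punch level. In control amacrine-like cells CPLX4 stood at 6.39%, 5.92% and 5.4%, and the rod markers at 16.1%, 6.9% and 12%. In control cone-like cells the rod markers stood at 105% in LG5, 13.6% in RC726 and 14.5% in RC724. Their part in the levels of CPLX4 in these classes and in its cone-like minus rod-like value was not tested.

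Müller glia are support cells without synapses and were measured as a class that should lack these transcripts. CPLX4 was not low there: it had 3579, 537 and 1084 CPM in control Müller glia-like cells, or 147%, 72.7% and 131% of its level in the whole control punch. The rod markers in the same cells stood at 41.9%, 9.57% and 12.5% of their whole-punch level. CPLX4 lies next to RAX, a transcription factor of Müller glia and photoreceptors, in the RefSeq gene order. RAX had 103, 198 and 152 CPM in control Müller glia-like cells. In control cone-like cells RAX had 53.0, 174 and 178 CPM, and in control rod-like cells 15.2, 5.82 and 6.69 CPM. Whether reads of one gene are counted for the other was not tested. The other 9 genes had lower means in Müller glia-like than in rod-like control cells; CPLX3, for example, had 16.8, 5.07 and 3.08 CPM there.

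The scaffold genes differed in order. CTBP2, whose locus encodes both the ribbon protein RIBEYE and a transcriptional corepressor that 3' counts do not separate, had 1449, 728 and 750 CPM in control cone-like cells, and 936, 369 and 397 CPM in control rod-like cells. Cone-like minus rod-like was 0.87 ± 0.23 (adjusted p = 0.011), and amacrine-like minus rod-like was -1.01 ± 0.23 (adjusted p = 0.0058). BSN, the bassoon gene, whose product anchors ribbons to the active zone, was sparse in every class and highest in amacrine-like cells, with 111, 27.1 and 52.7 CPM in control; amacrine-like minus rod-like was 1.44 ± 0.22 (adjusted p = 0.00043). PCLO, the gene of piccolo and its ribbon-synapse form piccolino, was highest in bipolar-like cells, with 505, 804 and 1053 CPM in control, against 241, 449 and 553 CPM in control rod-like cells; bipolar-like minus rod-like was 1.04 ± 0.24 (adjusted p = 0.0059). It had 488, 400 and 511 CPM in control amacrine-like cells.

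Both calcium channel genes were lowest in amacrine-like cells among the 4 classes. CACNA1F, the pore subunit of the Cav1.4 channel of photoreceptors, had 80.4, 63.0 and 91.5 CPM in control rod-like cells and 84.6, 58.4 and 77.1 CPM in control cone-like cells. It had 60.0, 32.0 and 46.4 CPM in control bipolar-like cells, and 5.11, 2.08 and 2.39 CPM in control amacrine-like cells, which together held 9 UMIs of it. CACNA2D4, its auxiliary subunit, had 158, 660 and 1069 CPM in control rod-like cells, about the range of bipolar-like cells, which had 225, 788 and 1011 CPM. In control cone-like cells it had 136, 285 and 422 CPM, lower than rod-like cells by a log2 value of -0.89 ± 0.30 (adjusted p = 0.032). Amacrine-like cells had 16.6, 21.9 and 19.9 CPM, and amacrine-like minus rod-like was -4.99 ± 0.38 (adjusted p = 6.9e-06). Müller glia-like cells in control had 25.7, 17.1 and 14.9 CPM of CACNA2D4, so the amacrine-like level was near that of a class taken to lack it.

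RIMS2, a scaffold that links vesicles to calcium channels, was the gene with the clearest order: each of the 6 pairs of classes passed, from rod-like (1000, 3960 and 4472 CPM in control) through cone-like (757, 2445 and 2505 CPM) and bipolar-like (413, 1723 and 1874 CPM) to amacrine-like cells (227, 735 and 929 CPM). UNC13B, which encodes the priming factor Munc13-2, had 145, 316 and 439 CPM in control rod-like cells, and cone-like and bipolar-like cells did not differ from them beyond the spread; amacrine-like cells had 60.0, 71.8 and 117 CPM (amacrine-like minus rod-like -2.01 ± 0.19, adjusted p = 2.4e-05). SYT1, the calcium sensor of fast release, passed in none of the 6 pairs. In control rod-like cells it had 902, 4824 and 6122 CPM, and in control amacrine-like cells 3415, 3499 and 4044 CPM, so LG5 turned the order round. Without LG5, amacrine-like minus rod-like was -0.73 (adjusted p = 0.0019) and bipolar-like minus rod-like was -0.99 (adjusted p = 0.00023).

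By pair of classes, 3 of the 10 genes passed for cone-like against rod-like cells (33.6% of the 15051 genes tested), 5 for bipolar-like against rod-like (46.6%), 8 for amacrine-like against rod-like (57.3%), 6 for bipolar-like against cone-like (39.2%), 8 for amacrine-like against cone-like (46.2%) and 8 for amacrine-like against bipolar-like (39.3%). The cells were grouped on other genes of the same barcodes, and these p-values hold for classes made in that way. Without RC726 or without RC724 all 3 calls between cone-like and rod-like cells were lost (adjusted p = 0.14 to 0.27), and so were PCLO (0.068 and 0.093) and CACNA1F (0.11 and 0.078) between bipolar-like and rod-like cells. The same held for CTBP2, CACNA1F, CACNA2D4 and RIMS2 between bipolar-like and cone-like cells (0.067 to 0.27). CTBP2 and PCLO between amacrine-like and bipolar-like cells were lost as well (0.063 to 0.13), and without RC726 also CPLX4 in that pair (0.094) and CTBP2 between amacrine-like and rod-like cells (0.052). Annotated genes overlap several members in the RefSeq table (for example LOC111098508 with RIMS2, and LOC102155931 and LOC111099018 with SYT1), and how shared reads were assigned was not given in the sources used here.

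The change over the graft was tested in each class with the experiment as a block. In rod-like cells 3 of the 10 genes passed, 1 higher and 2 lower, against 21.2% of the 15390 genes tested (11% higher and 10.2% lower). The share among the 10 genes is near that background. The values of 8 of the 10 genes were below 0, with a median log2 change of -0.25, where the median of all genes tested was 0.00048. The CPM of the groups did not overlap for 1 of the 10 genes, CPLX3, against 8.35% of all genes tested.

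CPLX3 had 61.8, 70.9 and 104 CPM in rod-like cells over the graft, against 28.3, 22.3 and 30.9 CPM in control rod-like cells. Each library over the graft lay above each control library. The log2 change was 1.51 ± 0.14 (SE, n = 3 per group, edgeR, adjusted p = 7.1e-05), a 2.85-fold higher level. CPLX3 UMIs were rare there: with each barcode thinned to 1000 UMIs, 5.26%, 5.45% and 8.43% of rod-like barcodes over the graft held a CPLX3 UMI, against 2.11%, 2.35% and 2.39% in control. The unthinned shares were 6.49%, 13.6% and 18.4% over the graft and 3.39%, 4.27% and 5.43% in control, at median depths of 831 to 1778 UMIs. The thinned shares in Müller glia-like cells were 3.31%, 1.5% and 1.26% over the graft and 1.52%, 0.82% and 0.36% in control. Part of these shares may be free RNA. An estimate from 3 bipolar markers put 25.5, 4.41 and 3.14 CPM of the CPLX3 level in rod-like cells down to it over the graft, against 15.6, 4.38 and 5.72 CPM in control. By the planned estimate, from the markers of the other classes, free RNA would make up 40.1%, 35.0% and 48.8% of rod-like UMIs over the graft, against 31.7%, 27.4% and 35.5% in control. Thinning left out 5946 shallower rod-like barcodes over the graft and 5826 in control.

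CPLX4 had 1305, 697 and 614 CPM in rod-like cells over the graft, against 2404, 1081 and 1068 CPM in control rod-like cells. It was lower over the graft in each experiment, although the groups overlapped because LG5 was high in both. The log2 change was -0.79 ± 0.13 (edgeR, adjusted p = 0.0018), so the control level was 1.73 times that over the graft. The 10 rod markers that name the class moved the same way: they summed to 15240, 16810 and 10690 CPM in rod-like cells over the graft, against 28230, 22060 and 20790 CPM in control rod-like cells. One of them, GNAT1, the alpha subunit of rod transducin, had 1967, 1098 and 838 CPM over the graft, against 2407, 1293 and 1341 CPM in control. Their part in the CPLX4 change was not tested. The thinned share of rod-like barcodes with a CPLX4 UMI was 67.7%, 45.9% and 39.9% over the graft and 89.5%, 61.5% and 55.7% in control. In Müller glia-like cells, by contrast, CPLX4 had 1975, 841 and 1644 CPM over the graft, against 3579, 537 and 1084 CPM in control, with a log2 change of 0.12 ± 0.29 (adjusted p = 0.90) whose sign differed between experiments.

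**Figure D2:**
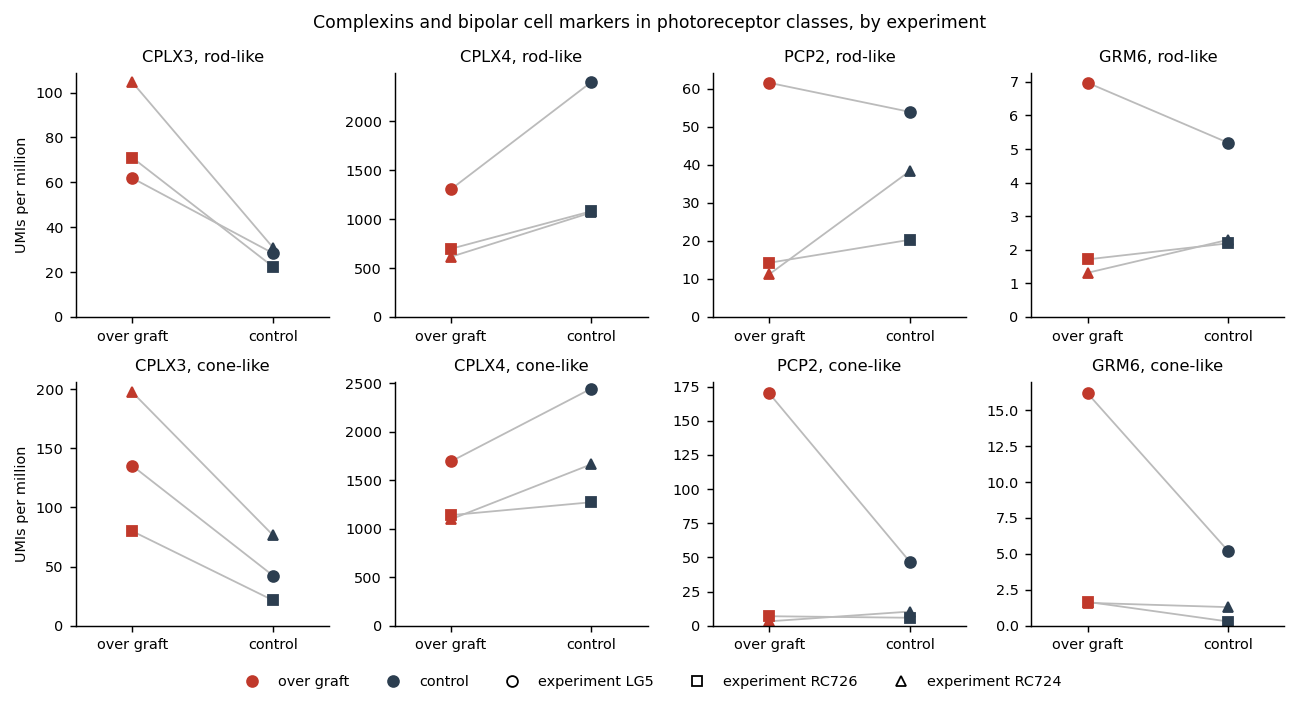
CPLX3 and CPLX4 beside PCP2 and GRM6, markers of ON bipolar cells, in rod-like (top) and cone-like (bottom) cells in CPM, over graft left of control, with grey lines joining the punches of an experiment. CPLX3 lies higher over the graft along all lines and CPLX4 lower, while PCP2 and GRM6 lie higher over the graft in LG5 but PCP2 lies lower in RC724 in both classes.

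Because CPLX3 is abundant in bipolar-like and amacrine-like cells, transcripts of those cells were read beside it in photoreceptor classes. PCP2, a marker of ON bipolar cells, had 61.6, 14.2 and 11.2 CPM in rod-like cells over the graft, against 53.9, 20.3 and 38.4 CPM in control rod-like cells, and only LG5 had more of it over the graft. Of 9 ON bipolar markers, 1 (PRKCA) was higher over the graft in rod-like cells in all 3 experiments and 3 were lower; of 10 amacrine markers, 1 (MEIS2) was higher and 3 were lower. The ON bipolar markers summed to 276, 459 and 644 CPM over the graft, against 219, 421 and 584 CPM in control, of which PRKCA made up 115, 417 and 609 CPM over the graft, against 77.7, 367 and 495 CPM in control. The amacrine marker GAD1 had 1, 3 and 4 UMIs in rod-like cells above the graft, against 4, 5 and 7 UMIs in control. In bipolar-like cells there were 0.256, 0.263 and 0.293 CPLX3 UMIs per PCP2 UMI over the graft and 0.21, 0.272 and 0.281 in control. In rod-like cells there were 1.0, 4.98 and 9.33 CPLX3 UMIs per PCP2 UMI over the graft and 0.526, 1.10 and 0.805 in control, above the bipolar-like ratio in each library. An alternative added after seeing the data subtracted free RNA estimated from PCP2, TRPM1 and GRM6. With it the rod-like change of CPLX3 was 1.82 ± 0.13 (edgeR, adjusted p = 0.00072). These 3 markers leave out PRKCA. In rod-like cells all 3 were higher over the graft in LG5 and lower in RC726 and RC724. Because they were picked after values were seen, this subtraction cannot test the part of free RNA in the CPLX3 change. The planned subtraction left CPLX3 below the minimum for testing in rod-like cells. Its marker lists hold MEIS2 and PRKCA, whose part in that loss was not tested.

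With barcodes gated 1 by 1 on the markers in place of clusters, CPLX3 in rod-like cells changed by 1.63 ± 0.16 (adjusted p = 1.1e-05), CPLX4 by -0.82 ± 0.15 (adjusted p = 0.0024) and UNC13B by -0.40 ± 0.14 (adjusted p = 0.070). The gate for amacrine cells took 2296 barcodes that the clusters placed with rods, against 931 that they placed with amacrine cells, so clusters are used throughout.

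Of the remaining genes in rod-like cells, UNC13B had 114, 286 and 305 CPM over the graft, against 145, 316 and 439 CPM in control, with a log2 change of -0.36 ± 0.11 (edgeR, adjusted p = 0.045). That call was lost when LG5 or RC724 was left out (adjusted p up to 0.27). SYT1 had 1549, 5723 and 8857 CPM over the graft, against 902, 4824 and 6122 CPM in control. It was higher in each of the 3 experiments but missed the threshold (0.50 ± 0.17, adjusted p = 0.061). RIMS2 had 630, 3043 and 3656 CPM over the graft, against 1000, 3960 and 4472 CPM in control, lower in each experiment and again short of the threshold (-0.46 ± 0.16, adjusted p = 0.060). Both passed without RC726, with adjusted p of 0.0061 for SYT1 and 0.026 for RIMS2. By DESeq2 both passed as well (adjusted p = 0.0032 for SYT1 and 0.0045 for RIMS2). The ribbon and channel genes CTBP2, PCLO, CACNA1F and CACNA2D4 had log2 changes of -0.25 to -0.14, each lower in all 3 experiments and none past the threshold (adjusted p = 0.14 to 0.42). BSN, at 24.9, 13.5 and 14.9 CPM over the graft, against 22.4, 12.5 and 18.8 CPM in control, had a log2 change of -0.04 ± 0.15.

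**Figure D3:**
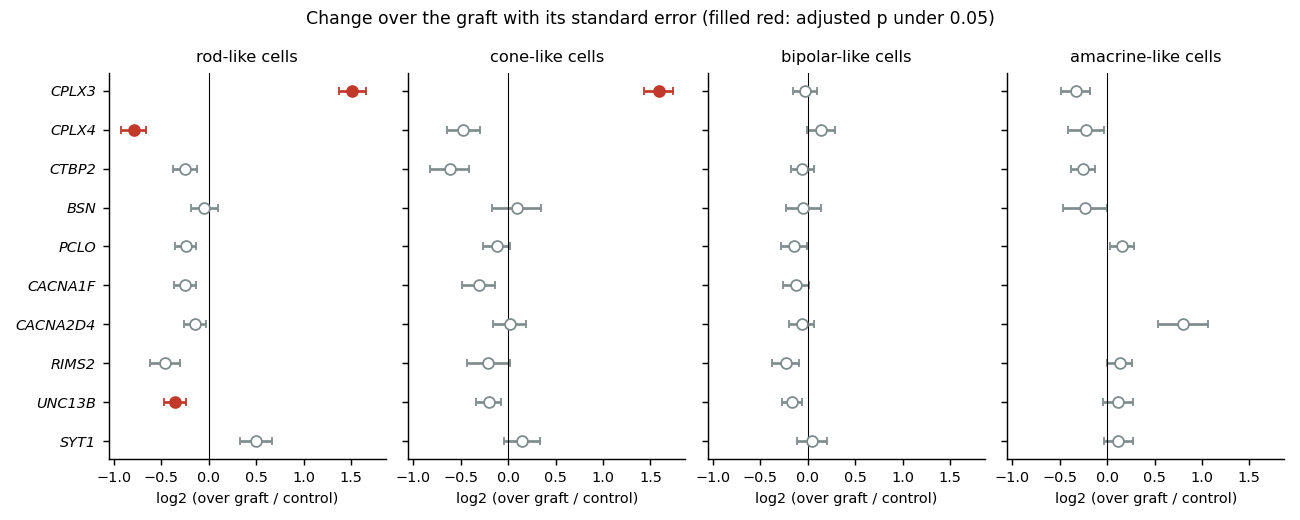
Log2 change over graft against control (x axis) of each gene with its standard error, in a panel for each of 4 classes, with filled red points for adjusted p under 0.05. The red points are CPLX3, CPLX4 and UNC13B in rod-like cells and CPLX3 in cone-like cells; CACNA1F was not tested in amacrine-like cells.

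In cone-like cells 1 of the 10 genes passed, against 3.85% of the 12143 genes tested (3.03% higher and 0.824% lower). CPLX3 had 135, 79.8 and 197 CPM in cone-like cells over the graft, against 42.3, 21.4 and 76.4 CPM in control cone-like cells. Again no library over the graft fell within the control range. The log2 change was 1.59 ± 0.15 (edgeR, adjusted p = 0.0011), a 3.0-fold higher level, and the thinned share of barcodes with a UMI was 13.1%, 9.68% and 12.9% over the graft and 3.26%, 1.55% and 6.37% in control. In LG5 cone-like cells PCP2 also stood higher over the graft, at 170 CPM against 46.8 CPM in control. In RC726 it was 6.91 against 5.79 CPM and in RC724 3.18 against 10.3 CPM (over the graft against control), and without LG5 the CPLX3 change was 1.55 ± 0.16 (adjusted p = 6.7e-07). Of the cone-like CPLX3 level, the estimate from 3 bipolar markers put 71.4, 1.93 and 1.05 CPM down to free RNA over the graft. In control it put 15.4, 1.09 and 1.49 CPM down to it. Cone-like cells had 0.795, 11.6 and 62.1 CPLX3 UMIs per PCP2 UMI over the graft and 0.904, 3.70 and 7.41 in control. By the planned estimate free RNA would make up 79.7% of LG5 cone-like UMIs over the graft and 81.2% in control, and at most 27.0% in RC726 and RC724. Of 9 ON bipolar markers, 4 were higher over the graft in cone-like cells in all 3 experiments and 0 were lower in all 3. GRM6, GPR179 and PRKCA were among those higher. Of 8 OFF bipolar markers 2 were higher in all 3 and 0 lower, and of 10 amacrine markers 2 were higher and 1 lower. The ON bipolar list summed to 538, 91.7 and 142 CPM over the graft, against 195, 59.9 and 98.4 CPM in control.

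CPLX4 had 1692, 1139 and 1096 CPM in cone-like cells over the graft, against 2444, 1272 and 1664 CPM in control. It was lower over the graft in each experiment, but the change of -0.47 ± 0.17 did not pass (adjusted p = 0.18). CTBP2 had 695, 710 and 486 CPM over the graft, against 1449, 728 and 750 CPM in control, so the groups did not overlap, which held for 2 of the 10 genes and 5.35% of all genes tested. Its change of -0.62 ± 0.21 did not pass either (adjusted p = 0.15), and RC726 showed almost none of it. The other 7 genes had log2 changes of -0.31 (CACNA1F) to 0.15 (SYT1) in cone-like cells, none past the threshold.

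In bipolar-like cells none of the 10 genes passed, against 0.126% of the 13489 genes tested; this class gave few calls of any kind, and 1613 genes had an unadjusted p under 0.05, none of them among the 10. By DESeq2 none of the 10 passed in bipolar-like cells either. CPLX3 had 1056, 578 and 616 CPM over the graft, against 961, 583 and 656 CPM in control, with a log2 change of -0.03 ± 0.12 (adjusted p = 0.94). The changes of the 10 genes lay between -0.23 (RIMS2) and 0.14 (CPLX4), with a median of -0.06, and none of the 10 had groups that did not overlap (2.33% of all genes tested). Both punches of RC726 and the LG5 punches drew most of their ON bipolar-like barcodes from the same cluster within each experiment, but in RC724 1 cluster held 86.7% of them over the graft and another, with nearly the same leading genes (CEP112, PRKCA and TRPM1), held 79.3% in control. Leaving out RC724 gave a CPLX3 change of 0.02.

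In amacrine-like cells none of the 9 genes tested passed, against 0.714% of the 11492 genes tested, and CACNA1F was below the minimum for testing; CPLX3 and CACNA2D4 had an unadjusted p under 0.05, as did 903 of all genes. By DESeq2 none passed in amacrine-like cells either. CPLX3 had 1076, 504 and 426 CPM over the graft, against 927, 649 and 763 CPM in control, a change of -0.33 ± 0.16 (adjusted p = 0.615) that was positive in LG5 and negative in RC726 and RC724. CACNA2D4 had 28.8, 25.6 and 47.4 CPM over the graft, against 16.6, 21.9 and 19.9 CPM in control; its groups did not overlap, as for 1 of the 10 genes and 2.80% of all genes tested. Its change was 0.80 ± 0.27 (edgeR, adjusted p = 0.29), on 145 UMIs over the graft and 59 in control. Over the settings tried, that change lay between 0.016 and 1.06. The planned estimate put free RNA at 35.7%, 11.9% and 15.4% of amacrine-like UMIs over the graft, against 15.8%, 8.5% and 11.8% in control. The part of free RNA in the CACNA2D4 value was not tested. SYT1, PCLO and RIMS2 had positive values in all 3 experiments, of 0.12, 0.16 and 0.13 on the log2 scale.

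In Müller glia-like cells none of the 10 genes passed by edgeR, against 0.0362% of the 16574 genes tested; 2067 genes had an unadjusted p under 0.05, CPLX3 and SYT1 among them. CPLX3 had 36.4, 8.60 and 7.93 CPM over the graft, against 16.8, 5.07 and 3.08 CPM in control, a change of 1.08 ± 0.17 (adjusted p = 0.094; 0.0043 by DESeq2). With doublets kept the change was 0.35 ± 0.16 (adjusted p = 0.41). It was higher over the graft in each experiment, while the groups overlapped. In LG5 the cluster that held most Müller glia-like barcodes over the graft (51.5%) was another than in control (85.6%). Müller glia-like cells had 0.324, 0.829 and 1.01 CPLX3 UMIs per PCP2 UMI over the graft and 0.350, 0.624 and 0.367 in control. Per barcode, control rod-like cells had 0.0356, 0.0486 and 0.0595 CPLX3 UMIs, and control Müller glia-like cells 0.0559, 0.0416 and 0.0569, at median depths of 831 to 1778 UMIs in rod-like cells and 2898 to 20602 UMIs in Müller glia-like cells. Over the graft the values were 0.0700, 0.177 and 0.253 in rod-like cells and 0.119, 0.0789 and 0.148 in Müller glia-like cells.

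The difference of the change between classes was then tested in fits of 12 sums each. Between cone-like and rod-like cells none of the 10 genes passed, against 5.91% of the 14878 genes tested (879 genes); CTBP2, CPLX4 and SYT1 had an unadjusted p under 0.05. For CPLX3 the cone-like change minus the rod-like change was 0.04 ± 0.16 (adjusted p = 0.93), and for CPLX4 it was 0.30 ± 0.15 (adjusted p = 0.27). Between bipolar-like and rod-like cells 2 of the 10 passed, against 6.92% of the 16153 genes tested. They were CPLX3, at -1.52 ± 0.15 (adjusted p = 0.00023), and CPLX4, at 0.96 ± 0.16 (adjusted p = 0.0035). The complexin changes of rod-like cells were thus not seen at that size in bipolar-like cells of the same punches. Rod markers there stood at 87.3%, 13.9% and 16% of their whole-punch level over the graft, against 44.3%, 10.2% and 14.4% in control. CPLX4 there stood at 44.7%, 17.6% and 10.4% of its own whole-punch level over the graft, against 22.7%, 16.5% and 7.81% in control. The part of rod RNA in the CPLX4 difference was not tested. With free RNA subtracted, CPLX4 fell below the minimum for testing in bipolar-like and amacrine-like cells.

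Between amacrine-like and rod-like cells 6 of the 10 genes passed, against 6.91% of the 16249 genes tested. CPLX3 differed by -1.81 ± 0.15 (adjusted p = 2.8e-30). This fit estimated no variation of the spread between genes, so its p-values treat the spread as known. CACNA2D4 differed by 1.01 ± 0.28 (adjusted p = 0.0072), CPLX4 by 0.66 ± 0.22 (adjusted p = 0.038), RIMS2 by 0.62 ± 0.18 (adjusted p = 0.010), UNC13B by 0.53 ± 0.18 (adjusted p = 0.0496) and PCLO by 0.45 ± 0.15 (adjusted p = 0.037). Apart from CPLX3, each of these 5 was lost when at least 1 experiment was left out; UNC13B and PCLO were lost in all 3 cases (adjusted p of 0.17 to 0.20 for UNC13B and 0.18 for PCLO). CPLX4 stood at 0.17 without LG5 (adjusted p = 0.90) and at 0.82 without RC724 (adjusted p = 0.15). CACNA2D4 stood at 0.64 without RC724 (adjusted p = 0.56), and RIMS2 at 0.73 without RC726 (adjusted p = 0.090) and 0.60 without RC724 (adjusted p = 0.34).

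Wider lists of synaptic genes, chosen with results of these data known, were counted in the same fits. Of all genes tested in rod-like cells 11% were higher and 10.2% lower, with a median log2 change of 0.00048. In rod-like cells, of 21 other ribbon and active zone genes 0 rose and 5 fell, with a median log2 change of -0.01. MPP4, a scaffold of photoreceptor terminals, changed by -0.47 ± 0.13 (adjusted p = 0.024), UNC13C by -0.47 ± 0.13 (adjusted p = 0.028), ERC2, a component of the active zone, by -0.39 ± 0.11 (adjusted p = 0.032) and RIMS1 by -0.62 ± 0.19 (adjusted p = 0.041), the last at a mean of 7.71 CPM over the graft, against 12.5 CPM in control. Of 13 tested genes of the presynaptic calcium channel and of calcium binding, 3 rose and 4 fell. CACNB2, the channel's beta subunit of photoreceptors, averaged 634 CPM over the graft, against 1097 CPM in control (-0.85 ± 0.13, adjusted p = 0.0012). CACNB4 changed by -0.93 ± 0.18 (adjusted p = 0.0038), CACNA2D2 by -0.73 ± 0.15 (adjusted p = 0.0065) and CALM2, a calmodulin gene, by 0.51 ± 0.11 (adjusted p = 0.0079). Thus 3 auxiliary channel subunits fell in a class in which CACNA1F and CACNA2D4 had values of -0.25 and -0.14 that did not pass.

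Of 25 tested genes of the vesicle and fusion machinery, 2 rose and 5 fell in rod-like cells. STX3, the syntaxin of ribbon synapses and a SNARE partner of complexins, averaged 403 CPM over the graft, against 589 CPM in control (-0.60 ± 0.12, adjusted p = 0.0045). VAMP2, its vesicle SNARE partner, averaged 466 CPM over the graft, against 296 CPM in control (0.56 ± 0.11, adjusted p = 0.0054). RABAC1 changed by 0.67 ± 0.12 (adjusted p = 0.0029) and NAPB by -0.57 ± 0.12 (adjusted p = 0.0078). Of 11 tested genes of the contact with bipolar and horizontal cells, 2 rose and 2 fell. LRIT3, which in mouse organises the receptor complex of ON bipolar cells from the photoreceptor side, averaged 41.0 CPM over the graft, against 118 CPM in control (-1.55 ± 0.15, adjusted p = 9.4e-05). ELFN1, the rod adhesion protein that pairs with the bipolar glutamate receptor in mouse, changed by -0.44 ± 0.13 (adjusted p = 0.034), and DAG1, the dystroglycan gene, by 0.39 ± 0.12 (adjusted p = 0.047). The other complexins stayed sparse: CPLX1 and CPLX2 averaged 4.87 and 2.14 CPM over the graft, against 4.46 and 1.45 CPM in control, and neither passed.

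**Figure D4:**
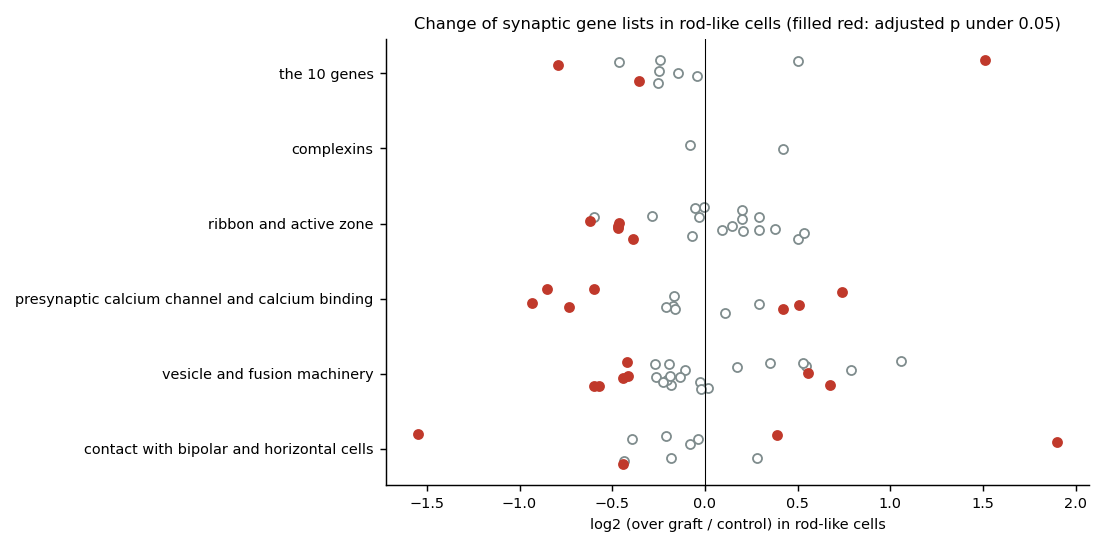
Log2 change over graft against control in rod-like cells (x axis) for the 10 genes and for the other synaptic genes tested, 1 point per gene grouped by list, with filled red points for adjusted p under 0.05 and vertical scatter only for legibility. CPLX3 lies at 1.51 and LRIT3 at -1.55, while most other synaptic genes lie nearer to 0.

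Outside rod-like cells the wider lists gave 1 call, in cone-like cells, where 3.85% of all genes tested passed. It was 1 of 12 tested genes of the calcium channel list, and 0 of 20 tested ribbon and active zone genes, 0 of 24 of the vesicle list and 0 of 10 of the contact list passed there. CACNA2D1, a calcium channel subunit, averaged 69.0 CPM in cone-like cells over the graft, against 31.5 CPM in control cone-like cells (1.03 ± 0.23, adjusted p = 0.043). None of the wider genes passed in bipolar-like, amacrine-like or Müller glia-like cells, where 0.126%, 0.714% and 0.0362% of all genes tested did. Over the 24 sums of 6 libraries by 4 classes, the genes whose log2(CPM + 1) was most like that of CPLX3 were PODXL2 (Pearson r = 0.967), TMEM132A (0.950), DIRAS2 (0.947), PITPNA (0.946) and KIDINS220 (0.944). For CPLX4 they were TULP1 (0.982), HNRNPF (0.982), RP1L1 (0.972), RTBDN (0.971) and RCVRN (0.970). These values describe 7831 genes with a mean of at least 20 CPM; the sums share libraries, and the levels differ mainly between classes and between LG5 and the other experiments.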

How the data were processed

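Counts of UMIs per gene and barcode were deposited by the authors as filtered 10x matrices, 1 per library. Per the file headers they came from Cell Ranger 6.0.2 (both LG5 libraries), 7.0.0 (RC726 control) and 7.1.0 (the other 3 libraries). The genome build, the handling of introns and strand, and any separation of human reads were not given in the sources used here. All 10 members match a RefSeq symbol in the UU_Cfam_GSD_1.0 gene table, as do 33363 of the 34981 genes in the files. The number of columns that could not be mapped to a sample was 0.

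A barcode was kept with 300 or more genes and no more than 20% of its UMIs from 13 mitochondrial genes. Automatic doublet calling marked at most 0.0351% of barcodes in a library and had not worked, so the top 6% of doublet scores were removed in each library. This left 75537 barcodes. Libraries shared 17 to 102 barcode sequences pairwise. Clusters (scanpy 1.11.5, Leiden resolution 1.5) were built without the members, the wider synaptic genes and annotated genes that overlap a member. Of 48 clusters, 40 were named from marker lists. The 4703 unnamed barcodes, 10.7% and 10.4% of LG5 over the graft and in control and at most 1.80% elsewhere, are in no class. In LG5 they include clusters whose best list was amacrine, with 958 barcodes over the graft and 345 in control.

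UMIs were summed per library and class and tested with edgeR 4.0.16 (R 4.3.3), a quasi-likelihood test with TMM scaling, the low-count filter of edgeR, the experiment as a block and Benjamini-Hochberg adjustment over all genes tested, with a threshold of 0.05. Standard errors of log2 changes were obtained as the absolute change over the root of F. Same-experiment punches deviated together from the means of their groups (correlation of 0.779 to 0.960 over classes). LG5 differs from the other experiments in both groups, which enters all of these values, so they cannot show pairing within RC726 or RC724. The experiment pairs the punches because both carry the same experiment name. The labels do not say whether the punches of an experiment come from 1 animal. The difference of changes used 12 sums with a class by experiment term. Control levels used 12 sums. The tests were tried on simulated counts. Alternatives were no block, DESeq2 1.42.0, other size factors, no low-count filter, a stricter barcode filter (500 genes, 10% mitochondrial UMIs), doublets kept, a marker gate per barcode, free RNA subtracted, thinned barcodes and leaving out each experiment; free RNA by 3 bipolar markers was added after seeing the data.

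The 10 members are given in each comparison. Of each wider list up to 4 genes per class are named, by p, among those past the threshold with 1 direction in all 3 experiments. Markers named beside CPLX3 and the genes beside CPLX4 were picked after values were seen. The members and lists were chosen with earlier results of these data known. Some marker genes are not reported here by name.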

Additional observations from a re-analysis of the deposited data

Results flagged for a closer look

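The change over the graft differed between classes for 8 pairs of a gene and a class, each by a test of the difference itself (edgeR, adjusted over all genes tested). Between bipolar-like and rod-like cells, CPLX3 differed by -1.52 ± 0.15 (SE, adjusted p = 0.00023), with changes of -0.03 in bipolar-like and 1.51 in rod-like cells. CPLX4 differed by 0.96 ± 0.16 (adjusted p = 0.0035), with changes of 0.14 in bipolar-like and -0.79 in rod-like cells. Both calls held when any 1 experiment was left out. With no class by experiment term no gene passed between these classes, so both calls were lost there. With free RNA subtracted, CPLX4 fell below the minimum for testing in bipolar-like cells. Rod markers in bipolar-like cells stood higher over the graft in each experiment, and their part in the CPLX4 difference was not tested.

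Between amacrine-like and rod-like cells, CPLX3 differed by -1.81 (adjusted p = 2.8e-30) and held without any 1 experiment. CACNA2D4 differed by 1.01 with changes of 0.80 in amacrine-like and -0.14 in rod-like cells, RIMS2 by 0.62 with 0.13 and -0.46, and CPLX4 by 0.66 with -0.22 and -0.79. UNC13B differed by 0.53 with 0.11 in amacrine-like and -0.36 in rod-like cells, and PCLO by 0.45 with 0.16 and -0.24. These 5 calls were each lost without at least 1 experiment. The adjusted p then reached up to 0.56 for CACNA2D4, 0.34 for RIMS2, 0.90 for CPLX4, 0.20 for UNC13B and 0.18 for PCLO. CACNA2D4 in amacrine-like cells held only 145 UMIs over the graft and 59 in control. Its change there lay between 0.016 and 1.06 over the settings tried.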

How the results depend on the processing

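CPLX3 in rod-like cells kept its direction in each setting that gave a value, and passed except without the replicate block (1.52, adjusted p = 0.58); the planned subtraction of free RNA gave none. CPLX4 in rod-like cells kept its direction too, and missed the threshold without the block (-0.83, adjusted p = 1.0) and with free RNA subtracted (-1.31, adjusted p = 0.096). CPLX3 in cone-like cells missed it in the same settings (1.52, adjusted p = 1.0 without the block, and 2.56 ± 0.48, adjusted p = 0.75 with free RNA subtracted). UNC13B in rod-like cells missed it also with no low-count filter, the stricter barcode filter, the gate and both subtractions. The cause of these shifts was not tested. In amacrine-like cells CACNA1F held 23 UMIs over the graft and 9 in control, CACNA2D4 145 and 59, and BSN 214 and 179. These small numbers limit their precision. CPLX3 in photoreceptors stood at a low level, with 3204 UMIs over the graft and 870 in control in rod-like cells. In cone-like cells it had 1286 UMIs over the graft and 433 in control. Without the replicate block, which ignores the pairing of punches, the genes called numbered 0 in rod-like, 0 in cone-like, 0 in bipolar-like, 0 in amacrine-like and 0 in Müller glia-like cells. Without the replicate block, which ignores the pairing of punches, the sign turned for RIMS2 in cone-like cells (0.018), CPLX4 in bipolar-like cells (-0.0062), CACNA2D4 in bipolar-like cells (0.014) and CPLX4 in Müller glia-like cells (-0.19). With DESeq2, the genes called numbered 46 in bipolar-like, 18 in amacrine-like and 281 in Müller glia-like cells. With no low-count filter, the genes called numbered 902 in cone-like, 651 in bipolar-like, 194 in amacrine-like and 1042 in Müller glia-like cells. With no low-count filter, the sign turned for CACNA2D4 in cone-like cells (-0.00060). With the stricter barcode filter, the genes called numbered 24 in Müller glia-like cells. With the stricter barcode filter, the sign turned for CACNA2D4 in cone-like cells (-0.0012) and BSN in bipolar-like cells (0.023). With doublets kept, the genes called numbered 126 in bipolar-like, 29 in amacrine-like and 28 in Müller glia-like cells. With doublets kept, the sign turned for CPLX4 in amacrine-like cells (0.21). With the marker gate per barcode, the genes called numbered 2138 in rod-like, 177 in cone-like, 5 in bipolar-like, 557 in amacrine-like and 43 in Müller glia-like cells. With the marker gate per barcode, the sign turned for BSN in bipolar-like cells (0.0072), SYT1 in bipolar-like cells (-0.00012), RIMS2 in amacrine-like cells (-0.20) and UNC13B in amacrine-like cells (-0.11). With the marker gate per barcode, the genes called for control levels numbered 4451 for amacrine-like minus cone-like and 4689 for amacrine-like minus rod-like cells. With the marker gate per barcode, the sign turned for CPLX4 in amacrine-like minus bipolar-like cells (0.93). With free RNA subtracted, the genes called numbered 266 in rod-like, 0 in cone-like, 0 in bipolar-like, 19 in amacrine-like and 0 in Müller glia-like cells. With free RNA subtracted, the sign turned for BSN in rod-like cells (0.013), CPLX3 in bipolar-like cells (0.21), CTBP2 in bipolar-like cells (0.14), PCLO in bipolar-like cells (0.053), CACNA1F in bipolar-like cells (0.049), CACNA2D4 in bipolar-like cells (0.16) and UNC13B in bipolar-like cells (0.038). With free RNA subtracted, the genes called for control levels numbered 3215 for amacrine-like minus bipolar-like, 4576 for amacrine-like minus cone-like and 3302 for cone-like minus rod-like cells. With free RNA subtracted, the sign turned for CACNA1F in cone-like minus rod-like cells (0.18). With thinned barcodes, the genes called numbered 303 in cone-like, 161 in bipolar-like, 4 in amacrine-like and 46 in Müller glia-like cells. With thinned barcodes, the sign turned for PCLO in cone-like cells (0.010), CPLX3 in bipolar-like cells (0.059) and UNC13B in amacrine-like cells (-0.062). With free RNA subtracted by 3 bipolar markers, the genes called numbered 21 in cone-like cells. With no class by experiment term, the genes called for the difference of changes numbered 0 for cone-like minus rod-like, 0 for bipolar-like minus rod-like and 3 for amacrine-like minus rod-like cells. The CPLX3 and CPLX4 calls between bipolar-like and rod-like cells were thus lost in that setting. With each experiment left out in turn, the genes called ranged over rod-like 1424 to 2909, cone-like 60 to 897, bipolar-like 6 to 222 and amacrine-like 19 to 112. With each experiment left out in turn, the genes called ranged over Müller glia-like 7 to 246, cone-like minus rod-like 489 to 1368, bipolar-like minus rod-like 453 to 1047 and amacrine-like minus rod-like 405 to 862. With each experiment left out in turn, the genes called ranged over amacrine-like minus bipolar-like 2862 to 6992, amacrine-like minus cone-like 3753 to 7860, amacrine-like minus rod-like 5050 to 9635 and bipolar-like minus cone-like 2786 to 7237. With each experiment left out in turn, the genes called ranged over bipolar-like minus rod-like 3616 to 8590 and cone-like minus rod-like 1567 to 7020. Leaving out each experiment in turn gave log2 values of BSN in rod-like -0.12 to 0.078, RIMS2 in cone-like -0.43 to 0.089, BSN in cone-like -0.24 to 0.34, CACNA2D4 in cone-like -0.14 to 0.22, CTBP2 in bipolar-like -0.10 to 0.023 and CACNA1F in bipolar-like -0.26 to 0.033. Leaving out each experiment in turn gave log2 values of CACNA2D4 in bipolar-like -0.13 to 0.048, CPLX3 in bipolar-like -0.049 to 0.017, CPLX4 in bipolar-like -0.078 to 0.27, BSN in bipolar-like -0.11 to 0.030, SYT1 in bipolar-like -0.045 to 0.11 and BSN in amacrine-like -0.65 to 0.10. Leaving out each experiment in turn gave log2 values of UNC13B in amacrine-like -0.012 to 0.31, CPLX4 in Müller glia-like -0.13 to 0.57, CPLX3 in cone-like minus rod-like -0.17 to 0.34, CACNA1F in cone-like minus rod-like -0.15 to 0.089, BSN in cone-like minus rod-like -0.094 to 0.29 and BSN in bipolar-like minus rod-like -0.087 to 0.11. Leaving out each experiment in turn gave log2 values of CACNA1F in bipolar-like minus rod-like -0.0087 to 0.35, CTBP2 in amacrine-like minus rod-like -0.17 to 0.22, BSN in amacrine-like minus rod-like -0.45 to 0.31, SYT1 in amacrine-like minus cone-like -0.26 to 0.65, PCLO in amacrine-like minus rod-like -0.34 to 0.24 and SYT1 in amacrine-like minus rod-like -0.73 to 0.39. Leaving out each experiment in turn gave log2 values of CTBP2 in bipolar-like minus rod-like -0.21 to 0.11 and CACNA1F in cone-like minus rod-like -0.088 to 0.0094.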

Other observations

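CPLX3 was also read in classes outside the comparisons. Horizontal-like cells had 189, 129 and 124 CPM over the graft and 231, 134 and 66.5 CPM in control (LG5, RC726 and RC724). In the whole punch CPLX3 had 241, 103 and 109 CPM over the graft and 175, 110 and 136 CPM in control, higher over the graft in LG5 and lower in RC726 and RC724, while it was higher in rod-like cells in all 3 experiments. CPLX4 per Müller glia-like barcode was 6.45, 7.71 and 30.6 UMIs over the graft and 11.9, 4.40 and 19.99 UMIs in control.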
